A study of Mus musculus with 2 samples.

Results

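The genes described here are p53, its main regulators and a set of its target genes, in untransformed mouse myeloid progenitors. The set has 10 members, taken by exact gene symbol from the 23988 genes of the deposited table: the p53 gene Trp53, the regulator genes Mdm2 and Mdm4, and the target genes Ccng1, Sesn1, Sesn2, Trp53inp1, Zmat3, Phlda3 and Gadd45a. All 10 symbols were found. The study holds 1 group of 2 libraries, named replicate 1 and replicate 2 by the numbers in their titles. Both came from C57BL/6 marrow from which lineage-positive cells had been removed and which was then kept for 7 days with IL3, SCF and IL6, with no other treatment. Neither the age nor the number of mice is given, nor whether the libraries stem from separate cultures, so the spread measures only how these 2 samples differ. HOXA9/MEIS1 leukaemia cells, which the series title names, were not analysed here, and the data hold no comparison of conditions. They show how strongly each gene of the pathway was expressed and how closely the libraries matched.

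The protein p53 is a transcription factor that is made all the time and destroyed almost as fast. MDM2 is the ubiquitin ligase that marks it for destruction and is itself a p53 target, which closes a feedback loop. MDM4 resembles MDM2, binds p53 and blocks its activity. DNA damage, oncogenes or disturbed ribosome assembly release p53 from these proteins, and it then binds DNA elements made of a pair of decamers and switches on genes for arrest, repair and death. In blood-forming cells p53 is known for restraining growth and for removing damaged progenitors. Because its control lies largely in protein stability, its transcript level does not measure its activity.

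Values are RPKM, read numbers per gene length and library size, so genes can be set side by side only as far as the lengths used are right. The effective library sizes read from the steps of the values were 29941063 in replicate 1 and 28793666 in replicate 2. Over the 10896 genes whose mean reached 1 RPKM, the log2 ratio of replicate 2 to replicate 1, on log2(RPKM + 1), had a median of -0.049, and the central 80% ran from -0.45 to 0.65. The levels of cell type markers were not alike in the libraries. Mast cell markers (Cma1, Mcpt4, Tpsb2, Mcpt2 and Mitf) summed to 13.1 RPKM in replicate 1 and 769 in replicate 2, all 5 being higher there. All 5 monocyte markers summed to 688 and 1366, all 6 macrophage markers to 651 and 1091, and all 5 basophil markers to 1350 and 2697. The neutrophil lists went opposite ways: the 5 primary granule markers of early precursors were all lower in replicate 2, at 5390 and 4088, and the 5 secondary granule markers of later stages all higher, at 9093 and 12199.8. Erythroid markers summed to 2.06 and 3.91 with Hbb-b1 and Hba-a1 listed at 0, and T and NK cell markers to 0 and 0.0496 with Cd3e, Cd4 and Ncr1 listed at 0 in both. In such bulk libraries a change in the share of a cell type and a change in RNA per cell cannot be told apart.

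All 10 members were detected, meaning at least 1 RPKM in both libraries, beside 10445 of the 23988 genes of the table. Their median level was 13.8 RPKM in replicate 1 and 13.7 in replicate 2, beside 13.4 and 13.2 over the genes whose mean reached 1 RPKM. Members spanned a wide range, from Mdm2 at about 73 RPKM to Zmat3 at about 3. The 6 highest stood in the same order in both libraries: Mdm2, Trp53, Ccng1, Trp53inp1, Mdm4 and Sesn1.

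**Figure D1:**
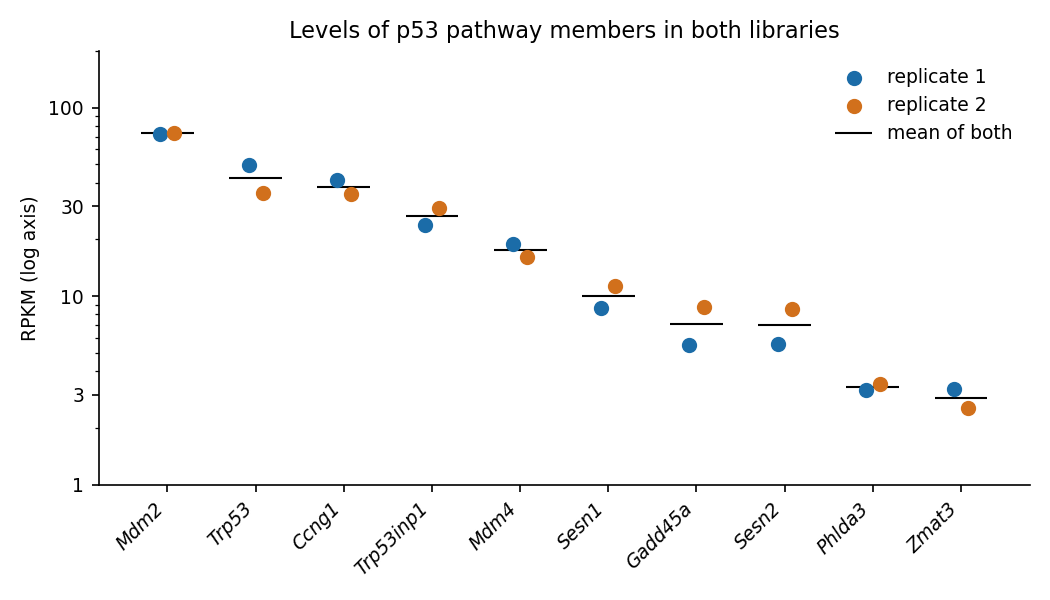
RPKM (log axis) of each member in replicate 1 and replicate 2, with the mean of both as a bar, ordered by mean. Mdm2 was highest in both libraries and its points almost coincide, while Trp53 was lower and Gadd45a and Sesn2 higher in replicate 2.

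Among the regulators, Mdm2 had a level of 72.7 RPKM in replicate 1 and of 73.0 in replicate 2, higher than 91.6% and 92.0% of the 16777 genes above 0. These values were nearly equal, and the SD over the libraries was 0.211 RPKM. Trp53 stood at 49.4 and 35.3 RPKM (mean 42.3 ± 9.93, SD, n = 2), higher than 87.8% and 84.0% of genes. Mdm4 stood at 18.95 and 16.2 RPKM (mean 17.6 ± 1.96, SD, n = 2). Both Trp53 and Mdm4 were lower in replicate 2.

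The transcript of the ligase exceeded those of its substrate and of its relative in each library. On the log2(RPKM + 1) scale Mdm2 exceeded Mdm4 by 1.89 in replicate 1 and 2.11 in replicate 2, a mean of 1.996 ± 0.16 (SD, n = 2). Its level was 3.84 and 4.51 times that of Mdm4. Trp53 minus Mdm2 gave -0.55 and -1.03, a mean of -0.79 ± 0.34 (SD, n = 2), so the gap between p53 and its ligase was wider in replicate 2. Trp53 exceeded Mdm4 by 1.21 ± 0.18 (SD, n = 2). A difference is said here to exceed the spread when it has the same sign in both libraries and its mean is over 2 SD, and all 3 of these did. No test was run: over 2 libraries the smallest p that exact sign flips allow is 0.5.

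Of the targets, Ccng1 and Trp53inp1 were highest. Ccng1, which encodes cyclin G1, which recruits a phosphatase to MDM2, had a level of 41.3 RPKM in replicate 1 and of 34.6 in replicate 2. Trp53inp1, whose product is a stress-induced nuclear protein that takes part in p53 signalling and autophagy, stood at 23.8 and 29.2 RPKM. Ccng1 was lower and Trp53inp1 higher in replicate 2, and their difference, 0.51 ± 0.38 (SD, n = 2), did not exceed the spread.

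The sestrins restrain mTORC1 and act against oxidative stress, and SESN2 also senses leucine. Sesn1 had a level of 8.66 RPKM in replicate 1 and of 11.3 in replicate 2, and Sesn2 at 5.59 and 8.54. Both were higher in replicate 2, and Sesn1 exceeded Sesn2 by 0.46 ± 0.13 (SD, n = 2). Gadd45a, a stress sensor that acts on p38 and on the cell cycle kinase CDK1, stood at 5.47 and 8.75 RPKM, almost level with Sesn2, from which it differed by 0.00 ± 0.04 (SD, n = 2).

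The lowest members were Phlda3 and Zmat3. Phlda3, which encodes a pleckstrin homology protein that keeps AKT from the membrane, had a level of 3.18 RPKM in replicate 1 and of 3.43 in replicate 2. Zmat3, which encodes a zinc finger protein that binds RNA, stood at 3.21 and 2.56. The difference between these members, 0.15 ± 0.23 (SD, n = 2), was smaller than the spread. Among the 9 pairs of neighbours in the order of levels, 3 differed beyond it: Mdm2 over Trp53, Sesn1 over Gadd45a, and Sesn2 over Phlda3.

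The order depends on the gene lengths behind the RPKM values. The steps of the values put the smallest fitting length at 5625 bp for Gadd45a, whose longest transcript in GENCODE vM21 has 1223 bp, and at 1953 bp against 1435 bp for Phlda3. For the other 8 members it was no longer than the longest transcript, such as 3487 against 3512 bp for Ccng1 and 2266 against 3275 bp for Trp53. Where it was far shorter, as for Mdm2 (1403 against 3145 bp) and Trp53inp1 (1331 against 5432 bp), a multiple of it may have been used, so it gives no other level. Divided by its longest transcript, Gadd45a would stand at no less than 25.2 RPKM in replicate 1 and 40.2 in replicate 2, near Ccng1 and Trp53inp1 instead of Sesn2. Over all genes with both lengths, 5487 of 15939 had a smallest fitting length above the longest transcript. In addition, 19.1% of the exon bases of Gadd45a overlap E230016M11Rik on the opposite strand in that annotation, and whether counting used the strand is not given in the sources used here. No exon base of the other 9 members overlaps another gene there.

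Promoter sequence was at hand for 8 members, from RefSeq on GRCm38.p6, a build later than the authors' mm9. Each window holds 250 bases before and 50 after an annotated start. The p53 decamer consensus, which reads 3 purines, a C, 2 letters that are A or T, a G and 3 pyrimidines, is its own reverse complement, so that 1 search covers both strands. Exact matches were found for Ccng1, Gadd45a, Mdm2, Sesn1 and Trp53, in 5 of the 10 windows of these members. Among all 32851 promoter windows, 8.36% held a match. The matches are shown because they are what a search for p53 elements finds near these starts. They describe sequence only, and binding was not measured. Capitals mark the match, sequences run 5′ to 3′ on the strand of the gene, and the Ccng1 and Cdkn1a lines show 2 adjoining decamers with 1 mismatch among 20 letters. The Cdkn1a line also holds a separate exact decamer, GGACTAGCTT, left in lower case, which began 73 bases before the upstream start of Cdkn1a.
Ccng1: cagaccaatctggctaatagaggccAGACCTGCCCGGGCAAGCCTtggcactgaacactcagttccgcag
Mdm2: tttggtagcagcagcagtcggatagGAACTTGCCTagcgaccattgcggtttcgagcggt
Sesn1: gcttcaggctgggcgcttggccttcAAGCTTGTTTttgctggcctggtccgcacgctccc
Trp53: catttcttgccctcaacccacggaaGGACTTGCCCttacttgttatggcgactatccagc
Cdkn1a: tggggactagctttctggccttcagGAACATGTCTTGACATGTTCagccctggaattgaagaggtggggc
These stretches are chr11:40755437-40755506 (minus strand) for Ccng1, chr10:117710910-117710969 (minus) for Mdm2, chr10:41887241-41887300 (plus) for Sesn1, chr11:69580259-69580318 (plus) for Trp53 and chr17:29090903-29090972 (plus) for Cdkn1a.

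The pair of adjoining decamers in the Ccng1 promoter, allowing 1 mismatch outside the central C and G letters, occurred in 22 of the 32851 windows (0.067%), and a Cdkn1a window was another of them. In Ccng1 the pair began 195 bases before the start, and in Cdkn1a 51 bases before the upstream start. The window at the downstream start of Cdkn1a held no exact decamer and no pair. The single decamers began 186 bases before the start in Mdm2, 173 bases before the downstream start of Sesn1 and 75 bases before that of Trp53. In Gadd45a the match, GGGCTAGCCC, began 40 bases before the start. The windows of Mdm4, Phlda3 and Sesn2 held no exact decamer, which says only that these letters are not in these windows. Members with a match stood at levels from 72.7 RPKM (Mdm2, replicate 1) to 5.47 (Gadd45a, replicate 1).

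Between the libraries, 6 of 10 members were higher in replicate 2, beside 44.1% of the 10896 genes. Mdm2 counts among the 6 by a log2 ratio of 0.01, which became -0.04 when the 10 highest genes of the table were left out of the scaling. The median log2 ratio of the members was 0.05, beside -0.05 over all genes. Gadd45a was the member at least 1.5-fold apart on the scale of RPKM + 1, 1 of 10 beside 15.6% of all genes. With a pseudocount of 0.1 Sesn2 joined it, which made 2, and with the 10 highest genes left out of the scaling there were 0. At least 1.5-fold higher in replicate 2 were 11.3% of all genes, and 4.26% were at least 1.5-fold lower, a group without a member. Each side is 1 library, so these differences have no replicate check.

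**Figure D2:**
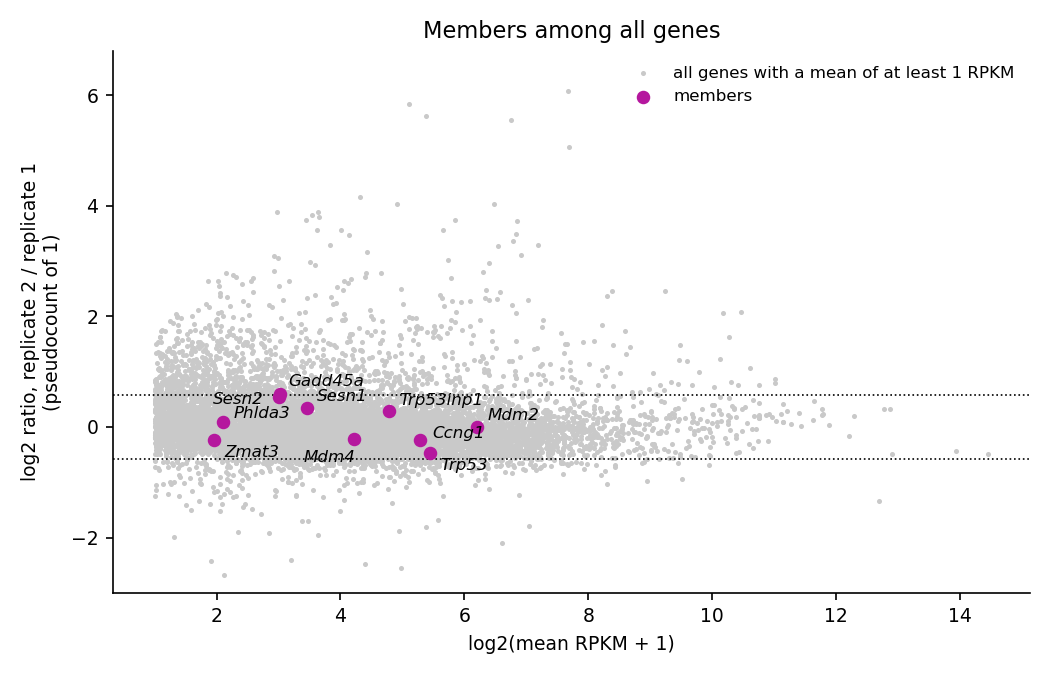
Log2 ratio of replicate 2 over replicate 1 (pseudocount of 1) against log2(mean RPKM + 1) for all genes whose mean reached 1 RPKM, with the 10 members in colour and dotted lines at 1.5-fold. The members lie within the cloud of all genes, Gadd45a just above the upper line and Trp53, at -0.47, just inside the lower one.

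Read numbers give the counting error of each ratio. They are the smallest whole numbers that fit the deposited values, so the intervals are at most this wide, and they cover counting error only. Trp53 had 3349 reads in replicate 1 and 2304 in replicate 2, and its RPKM ratio was 0.715 (95% exact interval 0.678 to 0.755). Ccng1 had 4307 and 3477 reads, a ratio of 0.839 (0.803 to 0.878). Mdm4, with 1788 and 1468 reads, had a ratio of 0.854 (0.796 to 0.915), and Zmat3, with 337 and 258, one of 0.796 (0.674 to 0.939). These 4 members were lower in replicate 2 by more than counting error.

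Gadd45a had 922 reads in replicate 1 and 1417 in replicate 2, a ratio of 1.60 (1.47 to 1.74). Sesn2, with 516 and 759 reads, followed at 1.53 (1.37 to 1.71), Sesn1, with 882 and 1105, at 1.30 (1.19 to 1.42), and Trp53inp1, with 947 and 1118, at 1.23 (1.12 to 1.34). These 4 members were higher in replicate 2 by more than counting error. Mdm2 had 3054 and 2949 reads, and its ratio of 1.004 (0.954 to 1.06) did not exclude equality. Phlda3, with 186 and 193 reads, was the least precise at 1.08 (0.878 to 1.33). In all, 8 of 10 intervals excluded 1, beside 71.5% of all genes, so differences beyond counting error were the rule in these libraries.

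**Figure D3:**
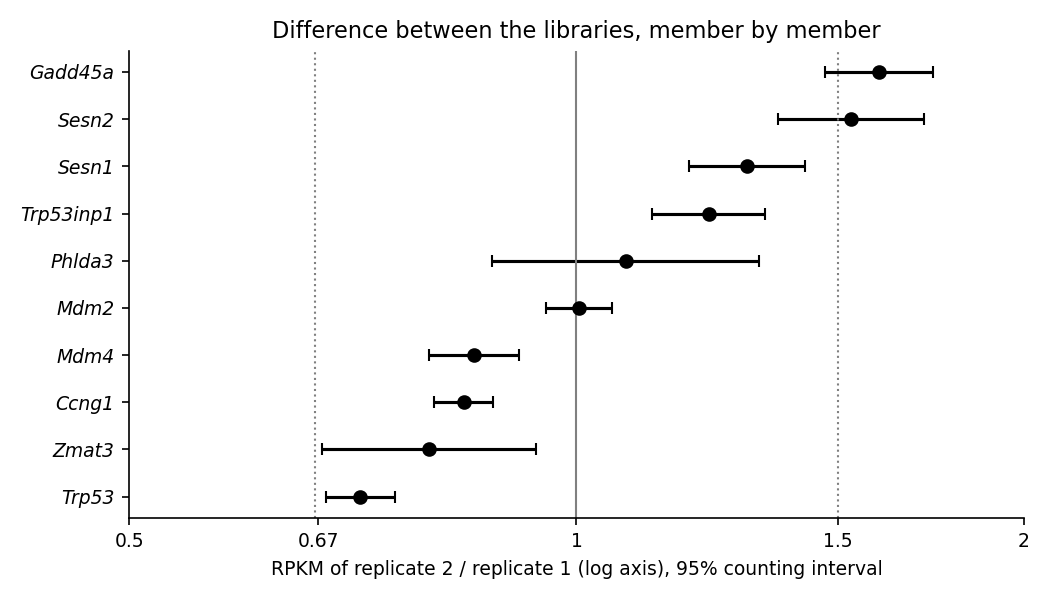
RPKM of replicate 2 over replicate 1 for each member (log axis), with the 95% exact counting interval, a line at 1 and dotted lines at 1.5-fold either way. The intervals of Mdm2 and Phlda3 cross 1, those of Trp53, Zmat3, Ccng1 and Mdm4 lie below it and those of Trp53inp1, Sesn1, Sesn2 and Gadd45a above it.

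The members did not shift as a block. Of the 3 regulators 1, Mdm2, was higher in replicate 2, and of the 7 targets 5 were, beside 44.1% of all genes. The counting intervals of Mdm2 and of Phlda3, which is among these 5, included 1. Ccng1 and Zmat3 were lower in replicate 2 together with Trp53. Proliferation genes were lower in replicate 2 as well: all 14 of them, while 44.1% of all genes were higher there. Of these 14, 1, Tyms at 20.8 and 12.9 RPKM, was at least 1.5-fold lower on the scale of RPKM + 1, beside 4.26% of all genes. Mki67 stood at 164 and 140 RPKM and Rrm2 at 409 and 277. The 14 summed to 1443 RPKM in replicate 1 and 1103 in replicate 2. Primary granule markers were lower in replicate 2, and markers of secondary granules, mast cells, basophils, monocytes and macrophages higher, with the sums given above. Eosinophil markers summed to 99.0 RPKM in replicate 1 and 71.5 in replicate 2, with 2 of the 3 compared lower there. The 5 megakaryocyte markers, all higher in replicate 2, summed to 46.8 and 80.0 RPKM. Any part of cell makeup in the differences of the members was not tested.

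Paralogues show how the members share their families' expression. The p53 relatives Trp63 and Trp73 were at or near 0: Trp73 was listed at 0 in both libraries, and Trp63 at 0 in replicate 1 and at 0.00787 RPKM, the value of 1 read, in replicate 2. Sesn3 stood at 0.590 and 0.884 RPKM, and Sesn2 exceeded it by 2.20 ± 0.21 (SD, n = 2). Ccng2, which encodes the other G-type cyclin and is a FOXO target, stood at 26.5 and 41.1 RPKM. It was below Ccng1 in replicate 1 and above it in replicate 2, a difference of 0.19 ± 0.61 (SD, n = 2) that was smaller than the spread.

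In the other families a paralogue outside the p53 set was higher. Trp53inp2, an autophagy gene, stood at 45.9 and 49.5 RPKM and exceeded Trp53inp1, whose difference from it was -0.83 ± 0.13 (SD, n = 2). Phlda1 stood at 11.1 and 9.37 RPKM, and Phlda3 minus Phlda1 gave -1.38 ± 0.22 (SD, n = 2), while Phlda2 stood at 0.103 and 0.256. Zmat2, a splicing factor gene, stood at 13.1 and 12.2 RPKM, Zmat5 at 2.61 and 2.57, Zmat1 at 1.03 and 1.64, and Zmat4 at 0 and 0.0154. Their smallest fitting lengths, 8899 bp for Zmat2 and 7782 bp for Zmat5, exceed their longest transcripts of 2310 and 792 bp, so these levels are less certain.

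Of the members and paralogues whose mean reached 1 RPKM, Gadd45b differed most between the libraries. Gadd45b had a level of 56.3 RPKM in replicate 1 and of 27.6 in replicate 2, a ratio of 0.490 (0.439 to 0.547), whereas Gadd45g stood at 6.86 and 11.6, a ratio of 1.69 (1.35 to 2.12). Gadd45a and Gadd45g were thus higher in replicate 2 and Gadd45b lower. Gadd45a minus Gadd45b gave -3.14 in replicate 1 and -1.55 in replicate 2, and Gadd45a minus Gadd45g -0.32 ± 0.06 (SD, n = 2). Neither order is settled, because with Gadd45a divided by its longest transcript the first difference was -1.13 and 0.53 and the second turned to 1.72 ± 0.02 (SD, n = 2).

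**Figure D4:**
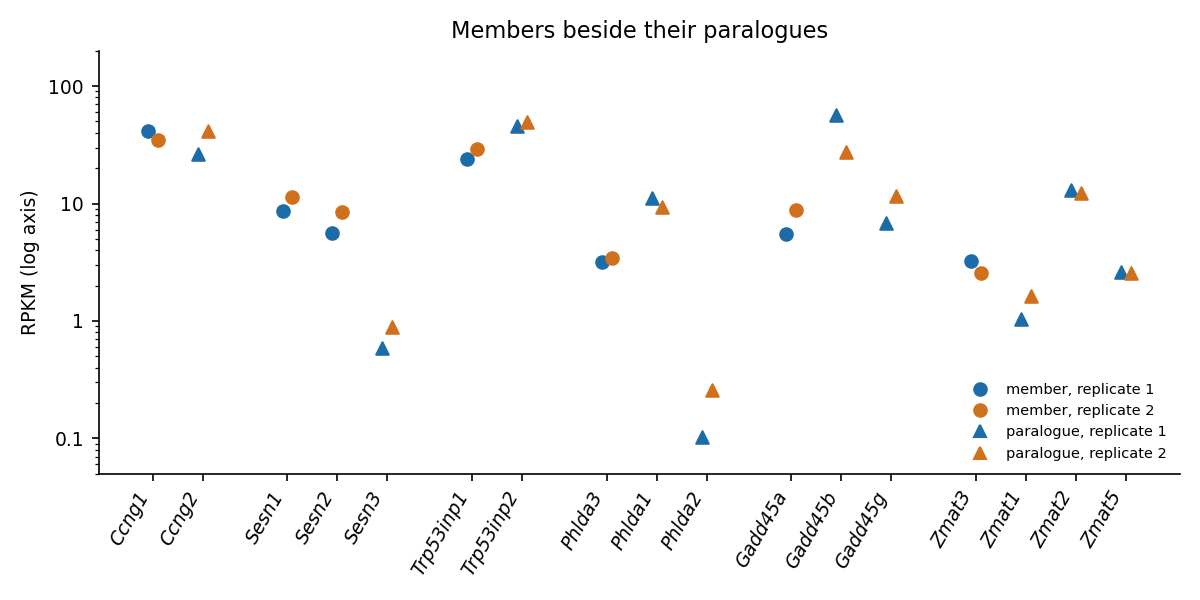
RPKM (log axis) of members (circles) and paralogues (triangles) in replicate 1 and replicate 2, by family; Trp63, Trp73 and Zmat4, at or near 0, are not drawn. Ccng1 and Ccng2 cross between the libraries, Sesn3 lies below the other sestrins, and Gadd45b is higher in replicate 1 while Gadd45a and Gadd45g are higher in replicate 2.

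Other p53 targets were also expressed, 28 of 32 being detected, beside 10445 of all 23988 genes. Their medians were 12.8 RPKM in replicate 1 and 12.0 in replicate 2, close to those of the members. Of the 29 whose mean reached 1 RPKM, replicate 2 was 1.5-fold or more above replicate 1 for 8 (11.3% of all genes) and below it for 2 (4.26%), and their log2 ratios had a median of 0.07. The median log2 ratio was 0.85 for the 8 arrest genes and -0.14 for the 11 death genes compared, beside -0.05 over all genes.

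Among the 8 arrest genes 5 were at least 1.5-fold higher in replicate 2 on the scale of RPKM + 1, as were 11.3% of all genes. Cdkn1a, which encodes the kinase inhibitor p21, stood at 52.0 and 105 RPKM, a ratio of 2.01 (1.93 to 2.10). Ptprv, a phosphatase gene, stood at 30.3 and 79.2, the polo-like kinase genes Plk2 at 3.13 and 11.1 and Plk3 at 13.1 and 24.9, and Btg2, an antiproliferative gene, at 13.4 and 24.5. Gtse1, a gene of G2 and S phase, was lower there at 51.0 and 33.1. Trp53 and Cdkn1a thus lay on opposite sides, the first lower and the second higher in replicate 2.

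Among the death genes, Apaf1, which encodes the apoptosome scaffold, stood at 93.0 and 94.9 RPKM and Perp at 55.5 and 40.3. Bax, which permeabilises mitochondria, stood at 41.1 and 30.6, but its smallest fitting length of 3304 bp exceeds its longest transcript of 1100 bp, at which it would stand at no less than 124 and 92.0, so the order of these genes is not settled. Pmaip1 (NOXA) stood at 21.3 and 19.2, and Aen, an exonuclease gene, at 22.2 and 14.6. Of the 11 compared, Dapk1, at 22.7 and 43.0, was the gene at least 1.5-fold higher in replicate 2 on the scale of RPKM + 1. Fas, at 3.41 and 5.46, was just under that line on this scale with an RPKM ratio of 1.60, and Trp53i11, at 0.107 and 1.15, had a mean under 1 RPKM and was not compared. Of 12 genes of repair, nucleotide supply and metabolism 9 were detected, beside 10445 of all 23988 genes. They were led by Xpc at 15.3 and 13.8 RPKM and 9630033F20Rik, an older name of Tigar, at 12.5 and 7.50. The largest differences there were in Pltp, a lipid transfer gene, at 0.338 and 5.94, and Ephx1 at 1.52 and 3.42.

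Genes for proteins that modify p53 were detected almost throughout, 37 of 38, beside 10445 of all 23988 genes. The exception was the kinase gene Trp53rk at 0.843 and 0.544 RPKM. Of the 37 compared, 10 were higher in replicate 2, beside 44.1% of all genes, and none was 1.5-fold apart on the scale of RPKM + 1, beside 15.6%. The kinases were led by Csnk1a1, which acts with MDM4, at 141 and 137 RPKM and Mapk14 (p38) at 87.7 and 97.8. The damage kinase genes had lower levels, with Atm at 19.96 and 17.2 RPKM and Atr at 13.04 and 14.9. The ligases were led by Huwe1 at 168 and 149 RPKM and Trim28 at 104 and 72.9. Of these 12 genes 1, Rchy1, was higher in replicate 2, beside 44.1% of all genes. Their median log2 ratio was -0.18, beside -0.05 over all genes. Usp7, a deubiquitinase of p53 and MDM2, stood at 31.0 and 27.9. Hdac1, at 522 and 451 RPKM, and Setd8, at 157 and 115, led the genes of acetylation, methylation and scaffolds, where Sirt1 differed most, at 43.3 and 28.8.

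Among inhibitors of MDM2, Cdkn2a, the locus of ARF and of the kinase inhibitor p16, had a level of 9.08 RPKM in replicate 1 and of 17.4 in replicate 2, a ratio of 1.92 (1.67 to 2.21). Gene-level values do not separate these products. The products of the ribosomal protein genes Rpl11 and Rpl5 bind MDM2 when ribosome assembly fails. Rpl11 stood at 1189 and 1238 RPKM and Rpl5 at 791 and 851. Of the nucleolar genes, Npm1 at 1182 and 823 RPKM, Ncl at 251 and 155 and Gnl3 at 47.2 and 30.3 were lower in replicate 2, whereas Gltscr2, an older name of Nop53, was higher at 18.8 and 24.5. In this list 1 of 10 genes was at least 1.5-fold higher in replicate 2 and 2 at least 1.5-fold lower, beside 11.3% and 4.26% of all genes.

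Several members answer to factors other than p53. Sesn1, Gadd45a and Trp53inp1 are also known as FOXO targets, and Sesn2 and Gadd45a as targets of the stress factor ATF4. Among 11 FOXO genes and targets compared, 10 were higher in replicate 2 (44.1% of all genes) and 6 at least 1.5-fold on the scale of RPKM + 1 (11.3% of all genes), with a median log2 ratio of 0.61. Txnip stood at 185 and 1017 RPKM and Klf2 at 7.97 and 35.0. Of 11 ATF4 genes and targets, Sesn2 included, 5 were higher in replicate 2, close to the share of all genes. Of these 5, 4 were at least 1.5-fold higher on the same scale, that is 4 of 11 beside 11.3% of all genes. Sesn2 was the fifth. The median log2 ratio of the list was -0.14. Vldlr, at 1.52 and 28.5 RPKM, and Atf3, at 43.5 and 129, differed most, while Atf4 itself stood at 117 and 104. The lists describe these 2 libraries and are no test of which factor acted.

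**Figure D5:**
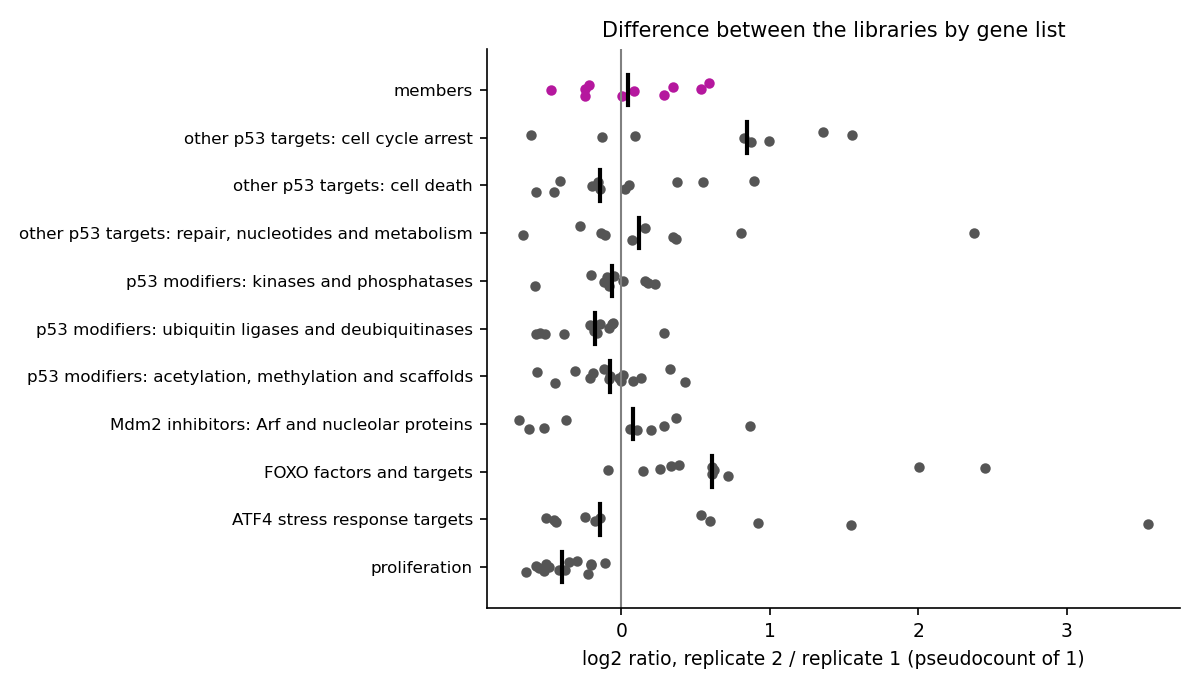
Log2 ratio of replicate 2 over replicate 1 (pseudocount of 1) of each gene whose mean reached 1 RPKM, by list, with the list median as a bar. The members centre near 0 at 0.05, the arrest and FOXO lists lie to the right at 0.85 and 0.61, and all 14 proliferation genes lie to the left of 0.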

How the data were processed

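The authors deposited RPKM values in 1 table with 1 column per library, and per the submitters' processing notes Trimmomatic 0.32, TopHat2, HTSeq and edgeR were used with build mm9. The sources used here do not give settings, annotation, strand setting or gene lengths. Columns were assigned by name to the sample titles. Of the rows, 27 with names in the form of dates were left out. The members, lists, contrasts and the rule for named genes were chosen with earlier results of these data known. That rule took the members, their paralogues, the 2 highest and the 2 most different genes of each list, Cdkn1a, Bax and Cdkn2a, and genes behind counts of 5 or fewer; not all are printed.

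Log2 ratios and differences used a pseudocount of 1 and understate differences of low genes; other targets were matched under older symbols where needed. Read numbers were recovered from the steps of the deposited values: 474 genes with equal reads gave the ratio of library sizes, 0.962, and 26 of 1316 single-transcript genes in GENCODE vM21 (GRCm38) gave the scale. Whole reads in both libraries were found for 16775 of 16777 genes above 0. The sizes may include a normalisation factor. Intervals are exact binomial ones (scipy 1.17.1), conditional on the reads of both libraries. A count of 0 allows up to 3 reads, 0.100 and 0.104 RPKM for a gene of 1 kb. The recovery was tested on simulated data. Alternatives were another pseudocount, other scalings and minimum levels, the mean for the median and each library alone; rescaling to the longest transcript was added after the data were seen.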

Additional observations from a re-analysis of the deposited data

How the results depend on the processing

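Of 15 results, 10 of them differences between a pair of genes, 51 of 58 alternative values kept the call or, where there was none, moved by less than the spread or 1.5 times. Among these, Ccng1 minus Ccng2, within the spread at 0.19, was -0.24 without replicate 1 and 0.62 without replicate 2, so its direction is not settled. Gadd45a minus Gadd45b fell within the spread at -0.30 and Gadd45a minus Gadd45g turned to 1.72 when lengths above the longest GENCODE vM21 transcript were cut to it, and under that setting the median level of the members was 22.0 RPKM. With the mean in place of the median that level was 22.8 RPKM. The number of members at least 1.5-fold apart was 2 with a pseudocount of 0.1, where Sesn2 joined Gadd45a, 0 with the values rescaled without the 10 highest genes and 0 at a fold of 2. Leaving out either library moved neither a difference between genes nor the median level of the members by more than the SD over the libraries. With 2 libraries this holds by construction. Dropping the minimum level changed nothing, because all members passed it. These values are among the 51, so that count does not measure how robust the results are. Depth limits Phlda3 and Zmat3 most, at 337 reads or fewer in a library. The lengths behind the RPKM values also limit comparing levels between genes.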

Other observations

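A few genes next to the members in name or position were looked at after their values were seen. Wrap53, which lies head to head with Trp53 and encodes a protein of the telomerase complex, had a level of 6.83 RPKM in replicate 1 and of 4.88 in replicate 2, a ratio of 0.714 (95% exact counting interval 0.633 to 0.804), beside 0.715 for Trp53. Trp53cor1 (lincRNA-p21), the noncoding neighbour of Cdkn1a, stood at 0.0937 and 0.137 RPKM, from at least 27 and 38 reads, with a ratio of 1.46 (0.870 to 2.49). Trp53i13 stood at 4.37 and 5.55 RPKM and Trp53tg5 at 0.0340 and 0.0177. E230016M11Rik, opposite Gadd45a, stood at 0.316 and 0.688 RPKM, a ratio of 2.18 (1.27 to 3.86), from at least 21 and 44 reads.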
